A study of Mus musculus with 18 samples.

Results

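Kupffer cells are the resident macrophages of the liver, and the 10 genes described here are markers of these cells or of macrophages in general: Emr1, Clec4f, Cd5l, Marco, Vsig4, Csf1r, Timd4, Cd163, Cd68 and Lyz2. They were taken by gene symbol from the gene count tables of 3 library preparation kits, and all 10 were found in each table, out of 21018 genes listed in at least 1 table. The livers came from 12-week-old male C57/B6J mice without any engineered allele. A group of 3 mice (ILB_9579, ILB_9582 and ILB_9583) received IL-1β at 20 µg/kg and another group of 3 mice (UNT_9574, UNT_9575 and UNT_9576) received saline, both as an intraperitoneal injection. Livers were perfused with PBS and collected 4 hours later. RNA of each mouse was made into a library with the Pico kit (stranded, total RNA, from 1.7 to 2.6 ng), the V4 kit (unstranded, poly(A), from 0.8 to 1.3 ng) and the TruSeq kit (stranded, poly(A), from 200 ng), which gives 18 libraries with 1 library per mouse and kit.

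Kupffer cells line the liver sinusoids, where they take up bacteria, aged blood cells and other particles from portal blood through scavenger, complement and lectin receptors, and they depend on signalling through the CSF1 receptor. IL-1β is a cytokine of the early inflammatory response, to which the liver answers with the acute-phase response and with an influx of neutrophils. Clec4f, Vsig4, Cd5l, Timd4 and Marco are known as genes of resident Kupffer cells in the mouse, whereas Csf1r, Emr1 and Cd68 are shared by macrophages of many tissues and Lyz2 also by monocytes and neutrophils.

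The upstream sequences of 4 of these genes are shown, 3 that were lower after IL-1β in at least 2 kits (Clec4f, Cd5l and Vsig4) and the gene that was higher (Marco). They are the 250 bases before the annotated start in RefSeq (GRCm38.p6, a later build than the mm9 of the count tables), 5′ to 3′ on the strand of the gene. Capitals mark GAGGAA or its reverse complement TTCCTC, the core recognised by PU.1, a transcription factor of the macrophage lineage.
Clec4f, 6 minus strand, chr6:83656117-83656366: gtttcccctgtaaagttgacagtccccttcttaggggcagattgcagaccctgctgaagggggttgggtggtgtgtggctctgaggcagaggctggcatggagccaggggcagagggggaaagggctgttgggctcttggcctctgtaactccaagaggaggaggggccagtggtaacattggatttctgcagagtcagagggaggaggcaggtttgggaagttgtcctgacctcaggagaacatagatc
Cd5l, 3 plus strand, chr3:87357631-87357880: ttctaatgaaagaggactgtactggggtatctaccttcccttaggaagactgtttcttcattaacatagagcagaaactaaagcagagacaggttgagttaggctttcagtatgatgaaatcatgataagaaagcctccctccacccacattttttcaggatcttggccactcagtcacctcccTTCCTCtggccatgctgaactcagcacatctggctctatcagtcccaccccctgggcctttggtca
Vsig4, X minus strand, chrX:96293439-96293688: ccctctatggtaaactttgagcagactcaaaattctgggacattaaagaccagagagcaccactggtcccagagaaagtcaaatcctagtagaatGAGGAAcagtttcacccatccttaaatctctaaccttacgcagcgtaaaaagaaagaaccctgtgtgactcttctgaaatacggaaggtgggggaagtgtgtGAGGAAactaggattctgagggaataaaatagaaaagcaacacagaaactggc
Marco, 1 minus strand, chr1:120505025-120505274: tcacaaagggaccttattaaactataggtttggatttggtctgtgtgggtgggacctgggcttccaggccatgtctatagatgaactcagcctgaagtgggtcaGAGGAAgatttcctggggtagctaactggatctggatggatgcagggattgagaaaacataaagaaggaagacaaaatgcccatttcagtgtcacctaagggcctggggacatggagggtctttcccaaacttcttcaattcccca
The motif stood 2 times in the Vsig4 sequence, 1 time each in those of Cd5l and Marco, and not in that of Clec4f. Of the 8 members matched in the promoter table (Emr1 and Csf1r were not matched), 4 held it on either strand (Cd5l, Cd68, Marco and Vsig4), against 23.3% of 32851 mouse promoters of the same length. An NF-κB-type motif, GGGA and CC with 4 bases between them, was in 2 members (Cd163 and Marco; 17.6% of all promoters). A C/EBP-type motif, TTGCNNAA, was in Cd68 alone (9.56% of all promoters), as was the AP-1 motif TGANTCA (6.75%). No match of 1 motif overlapped a match of another in these sequences. The 8 sequences are a description of letters, and no binding was measured.

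Counts in a Pico library summed to between 4024632 and 4134070, in a V4 library to between 12013453 and 12352473, and in a TruSeq library to between 12348864 and 12858237. The 10 genes had at least 2 counts in each of the 18 libraries, so every one was tested in every kit. Counts differed between all pairs of mice of a group by more than sampling noise (chi-square per degree of freedom of at least 7.04). IL-1β was compared with saline within each kit by limma-voom on the counts, with p-values adjusted by Benjamini-Hochberg over all genes of the kit, and a gene was called at an adjusted p of at most 0.05. Fold changes are on the log2 scale of CPM (the counts of a gene scaled to a library total of 1000000), and a negative value is lower after IL-1β. Since these are libraries of whole liver, fewer Kupffer cells and less RNA of a gene per cell cannot be told apart.

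In TruSeq, 7 of the 10 genes were lower after IL-1β (Emr1, Clec4f, Cd5l, Vsig4, Csf1r, Cd163 and Lyz2), Marco was higher, and Timd4 and Cd68 were not called. Over all 19424 genes of that kit, 21.8% were called lower and 12.3% higher. In Pico, 4 of the 10 were lower (Clec4f, Cd5l, Vsig4 and Csf1r; 10.8% of 18108 genes were called lower and 6.78% higher). In V4, 2 of the 10 were lower (Clec4f and Vsig4; 7.41% of 18051 genes were called lower and 3.60% higher). At an adjusted p of at most 0.1 the 10 genes gave 8 calls in TruSeq, 5 in Pico and 4 in V4 (40.4%, 22.9% and 16.5% of all genes in either direction), and at most 0.01 they gave 7, 2 and 0 (21.0%, 10.4% and 4.23%). Both edgeR and DESeq2 called 8 in TruSeq, 4 in Pico and 4 in V4, with Emr1 and Cd5l as the genes added in V4 (32.4%, 19.7% and 10.7% of all genes with edgeR and 29.6%, 16.6% and 12.9% with DESeq2). In 1 fit of the 18 libraries with the mouse as a replicate block, 8 were called in TruSeq, 2 in Pico (Vsig4 and Csf1r) and 5 in V4 (Clec4f, Vsig4, Emr1, Cd5l and Marco). That fit called 26.6%, 14.2% and 29.2% of all genes, so in V4 the calls rose over all genes as well. The median log2 fold change of the 10 genes was -0.97 in TruSeq, -0.62 in Pico and -0.99 in V4, against -0.17, -0.12 and -0.22 over all genes. All 3 IL-1β libraries were below all 3 saline libraries in CPM for 7 of the 10 genes in TruSeq (27.9% of all genes), 6 in Pico (18.6%) and 4 in V4 (18.6%), and all were above for 1 gene in TruSeq (17.1%) and for none in Pico (12.6%) or V4 (9.09%).

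**Figure D1:**
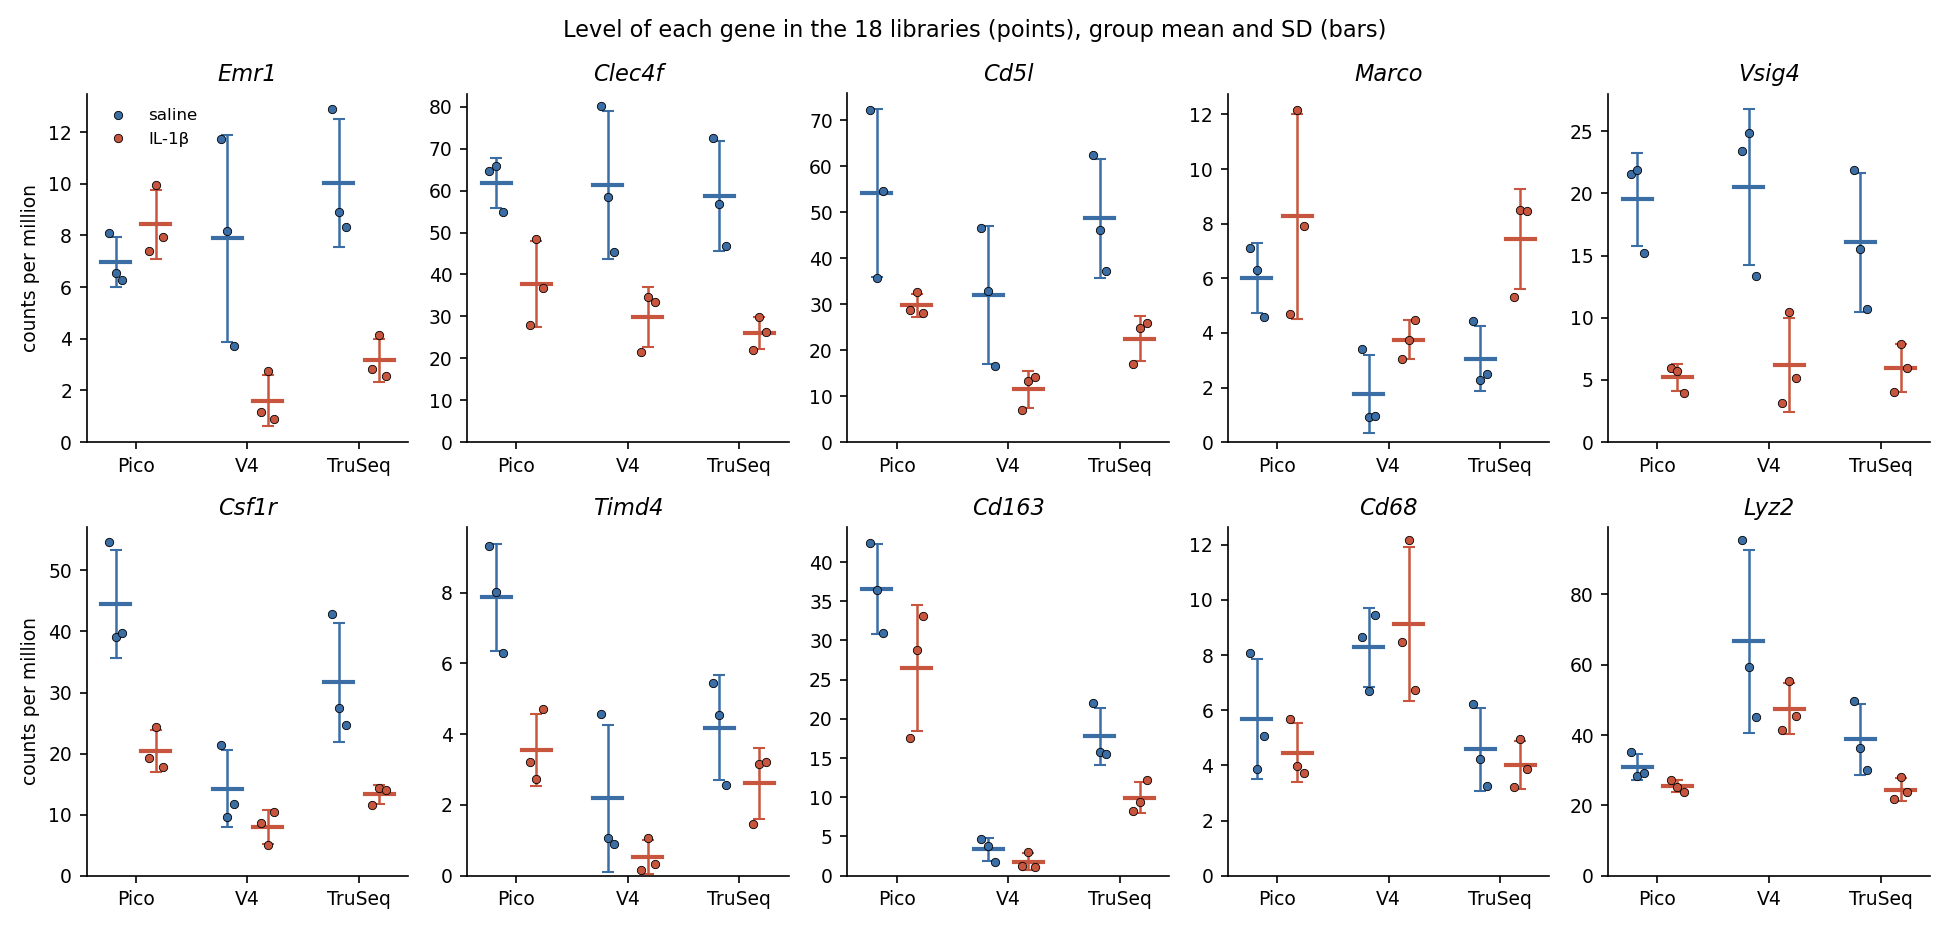
Level of the 10 genes in CPM (vertical axes, from 0) in each kit (horizontal axes), with 1 point per mouse, blue for saline and red for IL-1β, and bars for the mean and SD of 3 mice. In TruSeq the red points lie below the blue points for 7 genes and above them for Marco, and they overlap for Timd4 and Cd68.

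Clec4f and Vsig4 were called lower in all 3 kits. Clec4f (ENSMUSG00000014542; mm9 chromosome 6, 83594536 to 83606181, minus strand) encodes a galactose-binding C-type lectin that in the mouse liver is found on Kupffer cells. Its TruSeq counts were 274, 368 and 325 in the mice ILB_9579, ILB_9582 and ILB_9583, and 919, 726 and 602 in the saline mice UNT_9574, UNT_9575 and UNT_9576. In V4 they were 262, 419 and 402 against 964, 707 and 561, and in Pico 113, 195 and 149 against 264, 271 and 227. In each kit the highest IL-1β mouse stayed below the lowest saline mouse. The log2 fold change was -1.16 in TruSeq (SE 0.17, limma-voom adjusted p = 0.000788), -1.03 in V4 (SE 0.27, adjusted p = 0.0326) and -0.74 in Pico (SE 0.20, adjusted p = 0.0144), so that the saline mean in CPM was 2.26, 2.05 and 1.64 times that after IL-1β. The TruSeq call held without any single library. The Pico call was lost without mouse ILB_9579, ILB_9583, UNT_9574 or UNT_9575 (limma-voom adjusted p of up to 0.113), and that of V4 was held only without mouse UNT_9576 (adjusted p = 0.0246).

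Vsig4 (ENSMUSG00000044206; chromosome X, 93442542 to 93488777, minus strand) encodes a receptor of the immunoglobulin family that binds fragments of complement C3 and captures opsonised particles. It had the largest fall of the 10 genes in Pico, where its counts were 24, 23 and 16 after IL-1β and 88, 90 and 63 after saline. The TruSeq counts were 50, 97 and 74 against 277, 199 and 138, and those of V4 were 38, 126 and 62 against 281, 301 and 165. Groups did not overlap in any kit, although mouse ILB_9582 was above the other IL-1β mice in both poly(A) kits. The log2 fold change was -1.89 in Pico (SE 0.36, limma-voom adjusted p = 0.00128), -1.42 in TruSeq (SE 0.31, adjusted p = 0.00599) and -1.84 in V4 (SE 0.45, adjusted p = 0.0237). Leaving out any single library kept the call in Pico and TruSeq, whereas in V4 it was kept in 2 of 6 cases.

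Cd5l and Csf1r were called lower in TruSeq and Pico. Cd5l (ENSMUSG00000015854; chromosome 3, 87161803 to 87174996, plus strand) encodes a secreted scavenger receptor protein, also known as apoptosis inhibitor of macrophages. Its counts in TruSeq were 210, 307 and 320 after IL-1β and 791, 591 and 478 after saline. In Pico the counts were 116, 131 and 113 against 295, 147 and 226, and in V4 84, 160 and 172 against 558, 398 and 205. The groups were apart in each kit, but in Pico narrowly, with 131 counts in IL-1β mouse ILB_9582 and 147 in saline mouse UNT_9575. The log2 fold change was -1.10 in TruSeq (SE 0.21, limma-voom adjusted p = 0.0033), -0.81 in Pico (SE 0.24, adjusted p = 0.0272) and -1.42 in V4 (SE 0.43, adjusted p = 0.0576). The Pico call was kept only without mouse UNT_9575 (limma-voom adjusted p = 0.00487), and V4 gave a call only without mouse UNT_9576 (adjusted p = 0.0165).

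Csf1r (ENSMUSG00000024621; chromosome 18, 61265226 to 61291803, plus strand) encodes the receptor of CSF1 and IL-34, on which macrophages depend for survival. Its TruSeq counts were 143, 178 and 174 after IL-1β and 542, 351 and 318 after saline, and its Pico counts were 78, 98 and 72 against 223, 161 and 164. The V4 counts were 105, 60 and 126 against 257, 117 and 145. In the stranded kits the groups did not overlap, while in V4 the IL-1β mouse ILB_9583 exceeded the saline mouse UNT_9575. The log2 fold change was -1.21 in TruSeq (SE 0.21, limma-voom adjusted p = 0.00188), -1.11 in Pico (SE 0.22, adjusted p = 0.00208) and -0.81 in V4 (SE 0.40, adjusted p = 0.245). Both calls held without any single library. Exons of Csf1r share 871 bases (16.7% of its exon bases) with Hmgxb3 on the opposite strand, and V4 counts do not keep the strand. The part of Hmgxb3 in the V4 value was not tested.

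Marco was the 1 gene of the 10 that was called higher after IL-1β. The gene (ENSMUSG00000026390; chromosome 1, 122371115 to 122401661, minus strand) encodes a scavenger receptor with a collagenous domain that binds bacteria and particles. TruSeq counts were 66, 105 and 105 after IL-1β and 56, 29 and 32 after saline. In V4 they were 37, 45 and 54 against 41, 11 and 12, and in Pico 19, 49 and 32 against 29, 26 and 19. The groups were apart in TruSeq, whereas in V4 the saline mouse UNT_9574 lay among the IL-1β mice and in Pico the groups overlapped. The log2 fold change was 1.30 in TruSeq (SE 0.29, limma-voom adjusted p = 0.0073), 1.33 in V4 (SE 0.60, adjusted p = 0.196) and 0.37 in Pico (SE 0.42, adjusted p = 0.608). The TruSeq call was lost without mouse UNT_9575 or UNT_9576 (limma-voom adjusted p = 0.0529 or 0.0566) and kept without any other single mouse. Over these fits the log2 fold change was 1.12 to 1.60.

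Cd163 and Timd4, a pair of scavenging receptors of resident macrophages, were less clear. Cd163 (ENSMUSG00000008845; chromosome 6, 124254669 to 124280545, plus strand) encodes the receptor that takes up haemoglobin bound to haptoglobin. It had 103, 116 and 151 counts in TruSeq after IL-1β and 278, 202 and 200 after saline, without overlap. In Pico the counts were 71, 116 and 134 against 173, 150 and 128, and in V4 15, 37 and 13 against 56, 45 and 22, so the groups overlapped in both. The fall of Cd163 was called in TruSeq alone (log2 fold change -0.83, SE 0.19, limma-voom adjusted p = 0.00779). The values were -0.50 in Pico (SE 0.24, adjusted p = 0.177) and -0.95 in V4 (SE 0.63, adjusted p = 0.405). Timd4 (ENSMUSG00000055546; chromosome 11, 46624302 to 46657834, plus strand) encodes a receptor for phosphatidylserine on dying cells. Its counts were 18, 39 and 40 against 69, 58 and 33 in TruSeq, 13, 11 and 19 against 38, 33 and 26 in Pico, and 2, 13 and 4 against 55, 13 and 11 in V4. The groups were apart in Pico only. Timd4 was not called in any kit: the log2 fold change was -1.14 in Pico (SE 0.44, limma-voom adjusted p = 0.0865), -0.69 in TruSeq (SE 0.37, adjusted p = 0.194) and -1.93 in V4 (SE 0.96, adjusted p = 0.246).

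Emr1 and Cd68, like Csf1r, are shared by macrophages of many tissues, and Lyz2 also by monocytes and neutrophils. Emr1 (ENSMUSG00000004730; chromosome 17, 57498109 to 57622952, plus strand), today named Adgre1, encodes the adhesion receptor whose antibody is the usual stain for mouse macrophages. In TruSeq it had 35, 51 and 32 counts after IL-1β and 163, 114 and 107 after saline, and in V4 14, 33 and 11 against 141, 99 and 46. In Pico the counts were 30, 40 and 32 against 33, 27 and 26. Both poly(A) kits thus showed groups that did not overlap, with a saline mean of 3.16 times the IL-1β mean in CPM in TruSeq and 4.93 times in V4, whereas in Pico the groups overlapped. The fall was called in TruSeq (log2 fold change -1.65, SE 0.25, limma-voom adjusted p = 0.000876), which held without any single library. V4 gave -2.28 (SE 0.68, limma-voom adjusted p = 0.0552), with a call only without mouse UNT_9576 (adjusted p = 0.0193), and Pico gave 0.27 (SE 0.35, adjusted p = 0.675).

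Cd68 (ENSMUSG00000018774; chromosome 11, 69477715 to 69479655, minus strand), a glycoprotein of the lysosome membrane, was not called in any kit. The counts were 40, 61 and 48 after IL-1β and 79, 54 and 42 after saline in TruSeq, 23, 16 and 15 against 33, 16 and 21 in Pico, and 103, 147 and 81 against 104, 81 and 117 in V4. The groups overlapped throughout, and the log2 fold change was -0.16 (SE 0.27), -0.30 (SE 0.45) and 0.11 (SE 0.34), with limma-voom adjusted p-values of 0.68, 0.692 and 0.867. Lyz2 (ENSMUSG00000069516; chromosome 10, 116714390 to 116719377, minus strand), the lysozyme of phagocytes, had 270, 345 and 296 counts in TruSeq against 629, 466 and 387. It had 110, 102 and 96 against 144, 117 and 121 in Pico, and 506, 669 and 549 against 1147, 719 and 557 in V4. The groups were apart in TruSeq and in Pico and overlapped in V4. Lyz2 fell in TruSeq (log2 fold change -0.64, SE 0.18, limma-voom adjusted p = 0.0232), a call that was lost without mouse ILB_9579, ILB_9583, UNT_9574 or UNT_9575 (adjusted p of up to 0.106) and with TMM scaling (adjusted p = 0.0656). The values were -0.28 in Pico (SE 0.20, adjusted p = 0.411) and -0.43 in V4 (SE 0.27, adjusted p = 0.378). The neighbouring paralog Lyz1 shares 195 of the 1264 stretches of 50 bases of the Lyz2 transcript, and it had 0 to 4 counts in TruSeq and 0 to 6 in V4. Its part in the Lyz2 counts was not tested, and no other gene of the 10 shared more than 1 such stretch with another gene.

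**Figure D2:**
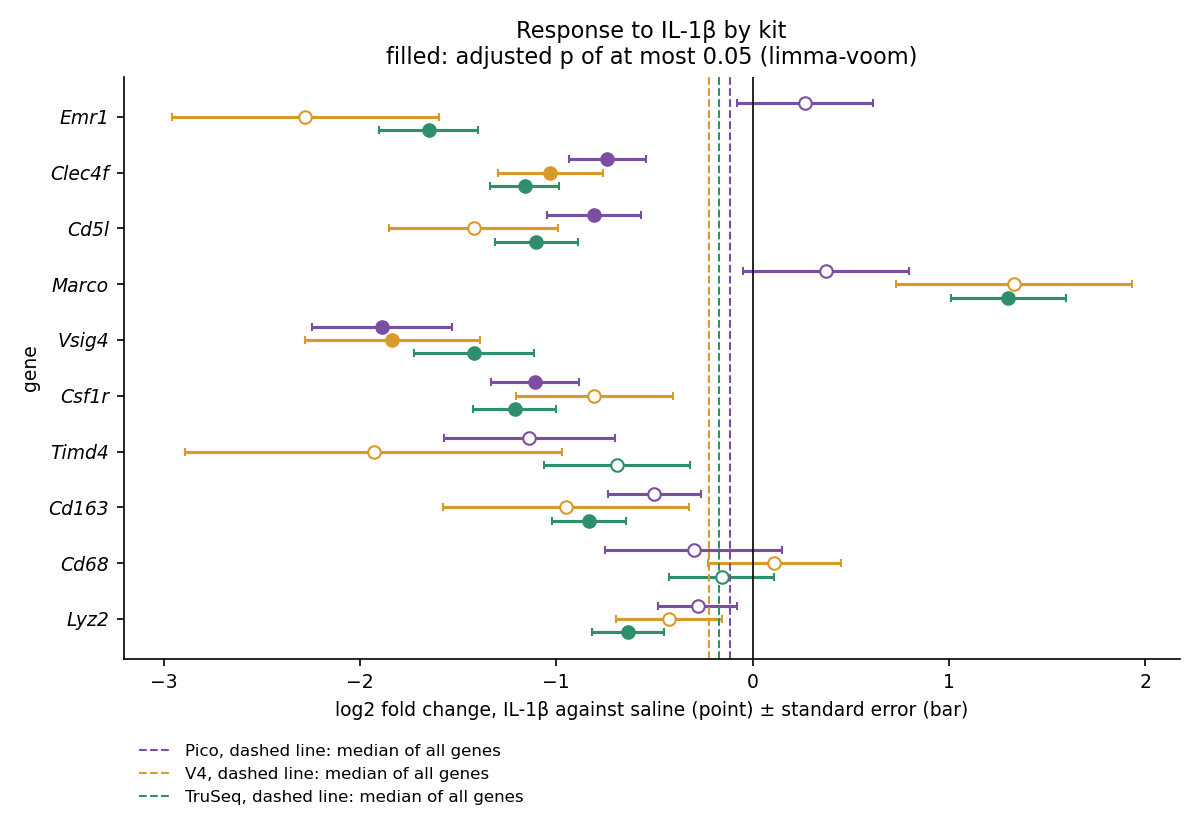
Log2 fold change of the 10 genes (vertical axis) after IL-1β against saline (horizontal axis) with its standard error, in Pico (purple), V4 (orange) and TruSeq (green), filled where the adjusted p was at most 0.05. Dashed lines mark the medians of all genes (-0.12, -0.22 and -0.17), and only Marco in TruSeq is filled to the right of 0.

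The scaling of the libraries moved all genes together. With TMM factors in place of library totals, the median of all genes moved up by 0.13 (Pico), 0.17 (V4) and 0.16 (TruSeq) on the log2 scale, and the share of calls that were higher went from 38.6% to 52.9%, from 32.7% to 49.7% and from 36.0% to 50.9%. Relative to the median of all genes, the 7 called falls in TruSeq ranged from -1.48 to -0.46 and the rise of Marco was 1.48. The called falls ranged from -1.77 to -0.62 in Pico and from -1.61 to -0.81 in V4. Each gene called with library totals kept its direction with TMM factors. The calls of Lyz2 in TruSeq, Cd5l in Pico (limma-voom adjusted p = 0.0585) and Clec4f in V4 (adjusted p = 0.0878) were lost, and the other 11 were kept.

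A call in 1 kit and not in another does not show that the response differed, so the difference in log2 fold change was tested itself with a kit by treatment interaction. None of the 10 genes was called in any of the 3 pairs of kits by limma-voom (0.00% of 17207 genes for Pico against TruSeq, of 17147 for V4 against TruSeq and of 16395 for Pico against V4). At an unadjusted p under 0.05, 1 gene of the 10 passed in Pico against TruSeq (5.49% of all genes), 1 in Pico against V4 (5.49%) and none in V4 against TruSeq (6.36%). That gene was Emr1 in both pairs. Its log2 fold change in Pico exceeded that in TruSeq by 1.92 (SE 0.43, 95% interval 1.01 to 2.82, limma-voom adjusted p = 0.507) and that in V4 by 2.54 (SE 0.80, interval 0.86 to 4.23, limma-voom adjusted p = 0.632). With the mouse as a replicate block the adjusted p of the first difference was 0.347 (limma-voom) and by edgeR's quasi-likelihood test without the block 0.469. DESeq2 called it (adjusted p = 0.032), as 1 of 4 genes (0.0232% of all genes), and gave 0.121 for the second, where it called 0.0854% of genes and none of the 10. DESeq2 called 0.362% of genes between V4 and TruSeq, none of them among the 10, and the fit with the replicate block called 0.00581% of genes between Pico and TruSeq, again none of the 10. The edgeR test called 0.00% in each pair. The remaining 9 genes differed between Pico and TruSeq by -0.93 (Marco) to 0.42 (Clec4f), and without the block the 95% interval of each held 0. With the block, which takes in that both kits used RNA of the same mice, the difference of Clec4f was 0.45 with an interval of 0.06 to 0.85, which leaves out 0 (limma-voom adjusted p = 0.659), and that of Emr1 was 1.92 (1.17 to 2.66). Without the block the interval was -0.17 to 1.01 for Clec4f, -1.58 to 0.64 for Vsig4 and -0.59 to 0.80 for Csf1r, so a sizeable difference was not excluded by these data. The widest of these intervals over the 3 pairs of kits was that of Timd4 between Pico and V4, from -1.35 to 2.94. TruSeq also differed from both other kits in RNA input, read length and sequencer, and Pico and V4, which shared read length and sequencer, differed in RNA input, none of which can be told apart from the chemistry of the kit.

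The saline mice differed among themselves in these genes, and the summed CPM of the 10 fell in the order UNT_9574, UNT_9575 and UNT_9576 in every kit. Mouse UNT_9574 had the highest CPM of the 3 saline mice for 10 of the 10 genes in TruSeq (36.0% of 11529 genes of similar depth), for 8 in V4 (27.7% of 10528) and for 8 in Pico (34.5% of 9687). Its level divided by the mean of the other saline mice had a median of 1.52 over the 10 genes in TruSeq (1.40 to 1.86), 1.85 in V4 (1.07 to 4.66) and 1.28 in Pico (1.07 to 1.80). The median was 1.01, 0.966 and 1.01 over the genes compared. Mouse UNT_9576 was the lowest saline mouse for 9 of the 10 genes in TruSeq (38.8% of the genes compared), 7 in V4 (41.4%) and 6 in Pico (37.0%). Among the IL-1β mice, ILB_9579 was lowest for 9 genes in TruSeq (33.3%), 6 in V4 (32.2%) and 4 in Pico (34.0%). The 3 libraries of a mouse come from the same RNA, so the agreement between kits is a repeat measurement of 1 animal and not of the treatment.

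The level of other phagocyte lists in mouse UNT_9574 depended on the list and the kit. Of the 22 pan-phagocyte genes, 17 were highest there among saline mice in TruSeq, 11 in Pico and 16 in V4. Of the neutrophil markers, 9 of 11, 6 of 8 and 8 of 10 were listed as highest there, and of the 8 hepatocyte markers 1, 0 and 0. Some neutrophil markers had few or no counts after saline. A tie for the highest place was counted for UNT_9574 where this mouse shared it. Ngp in TruSeq, without counts in any saline mouse, was such a tie. These numbers can therefore overstate this mouse, by an amount that was not determined. The shares were 36.0% of 11529, 34.5% of 9687 and 27.7% of 10528 genes of similar depth. No such share was given for genes with as few counts as the neutrophil markers. The summed neutrophil markers in Pico were nonetheless highest in UNT_9576 (6.05 CPM against 5.39 in UNT_9574), and the summed further Kupffer cell genes in V4 were lowest in UNT_9574 (555.7 CPM against 583 and 627.7). The summed neutrophil markers in TruSeq were 6.80 CPM in UNT_9574, 3.75 in UNT_9575 and 4.90 in UNT_9576. The summed hepatocyte markers were lowest in UNT_9574, with 88340 CPM against 100900 and 106400. The part of blood cells or of the share of hepatocyte RNA in the level of mouse UNT_9574 was not tested. Without the libraries of this mouse, TruSeq called 7 of the 10 genes (6 lower and Marco higher, with Lyz2 lost at a limma-voom adjusted p of 0.0758), Pico called Vsig4 and Csf1r, and V4 called none. Calls over all genes fell as well, from 6614 to 5200 in TruSeq, 3179 to 2282 in Pico and 1986 to 1143 in V4. Such losses were not particular to this mouse. V4 also called none without ILB_9579, ILB_9583 or UNT_9575, and Pico also called 2 without ILB_9579 or ILB_9583. In TruSeq the log2 fold change without mouse UNT_9574 was -0.996 for Clec4f, -1.17 for Vsig4, -0.97 for Csf1r and -1.46 for Emr1, each closer to 0 than with it.

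Levels between the genes were compared in CPM per kilobase of annotated exon. In TruSeq saline libraries, Lyz2 was highest with 29.5 ± 7.62 (SD, n = 3), followed by Cd5l with 23.9 ± 6.30 and Clec4f with 23.8 ± 5.27. Ranges of these 3 genes overlapped, and Cd5l exceeded Clec4f in 1 of 3 mice. Vsig4 at 10.8 ± 3.77 stood apart below them, followed by Csf1r (6.06), Cd163 (3.96), Cd68 (3.64), Emr1 (3.09), Timd4 (1.93) and Marco (1.54), where only Emr1 and Timd4 were neighbours with separate ranges. With counts thinned to the smallest Pico library, the ranges of Emr1 and Timd4 overlapped as well. After IL-1β, Lyz2 stayed first in TruSeq (18.7 ± 2.40), Cd5l and Clec4f followed (11.1 and 10.5), Marco moved from last to the fifth place (3.74 ± 0.92), and Emr1 was last (0.98 ± 0.26). In Pico saline libraries the order began with Cd5l, Clec4f and Lyz2 (26.6 ± 8.98, 25.01 ± 2.42 and 23.6 ± 2.85), with overlapping ranges, and ended with Emr1 (2.15 ± 0.30). In V4 Lyz2 was at the top in both treatments (50.8 ± 19.8 after saline), apart from Clec4f after IL-1β with full and thinned counts and after saline with full counts only, and Cd163 was last after saline (0.75 ± 0.33). Cd163 and Csf1r have the longest exon sequences of the 10 (4492 and 5229 bases), and their V4 levels after saline were 0.75 and 2.73, against 3.96 and 6.06 in TruSeq. Emr1, the next longest with 3245 bases, was at 2.43 in V4 against 3.09. The shorter Timd4 and Marco were also lower in V4, at 1.004 and 0.889 against 1.93 and 1.54. A part of exon length in these levels was not tested. The tables were normalized separately, so levels are set side by side across kits without a test.

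**Figure D3:**
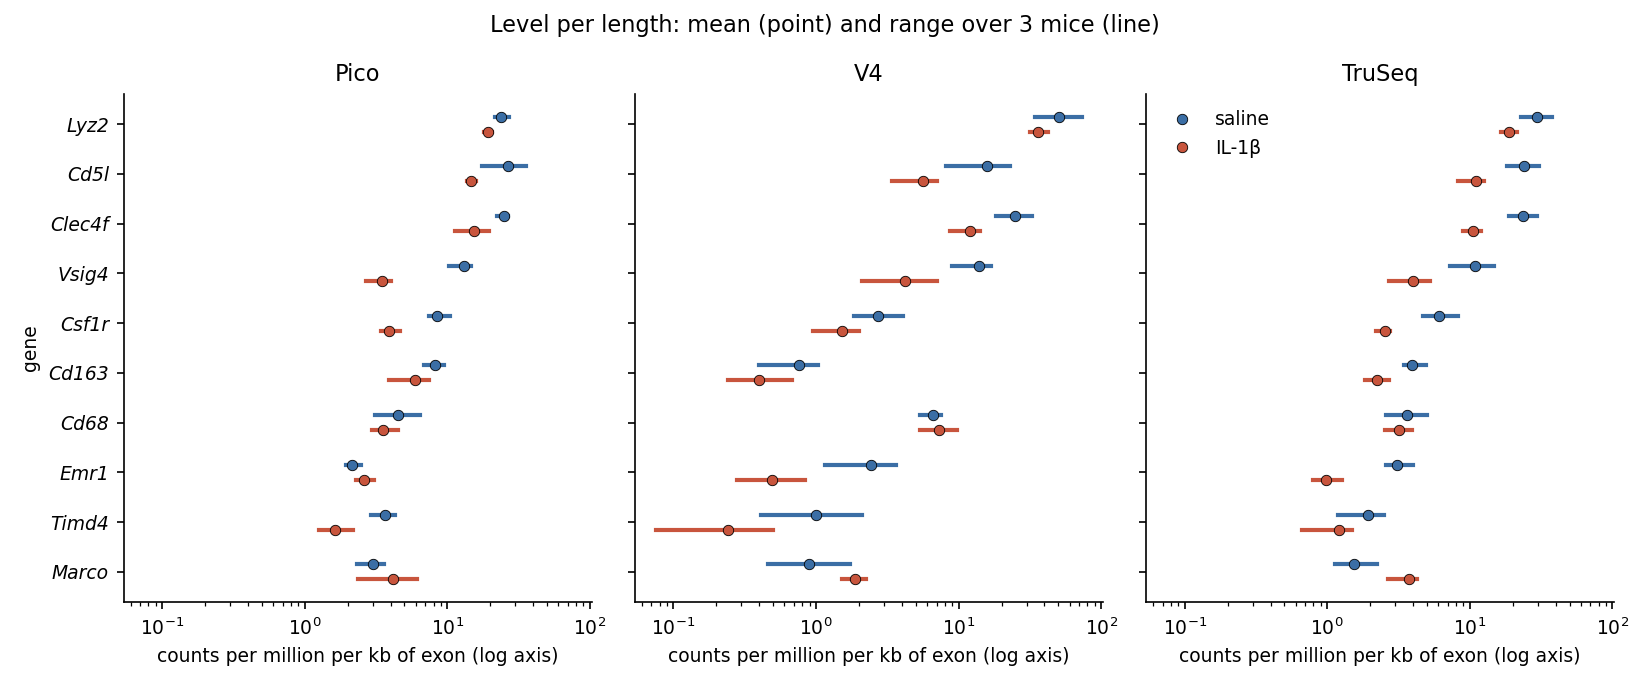
Level of the 10 genes in CPM per kilobase of exon (horizontal log axis), with the mean (point) and range (line) of 3 mice, blue for saline and red for IL-1β, 1 panel per kit and genes ordered by TruSeq saline. By their means, Lyz2, Cd5l and Clec4f lie at the top in the saline libraries of each kit, although in V4 the ranges of Cd5l and Vsig4 overlap, and Emr1 after IL-1β is the lowest gene in TruSeq.

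The genes most like 3 of the members over the 18 libraries were named from Pearson correlations of log2(CPM + 1), centred on the kit mean, among the 8960 genes whose mean count reached 20 in all 3 kits. The libraries share mice and treatments, so these values are descriptions. Clec4f was most like Elovl2 (r = 0.97), which encodes a fatty acid elongase, Slc19a2 (0.96), a thiamine transporter, and Clec4g (0.96), a lectin of sinusoidal endothelium. Of the other members, Cd5l (0.92) and Vsig4 (0.91) were nearest to Clec4f, Cd68 was at 0.20 and Marco at -0.37. Csf1r was most like Myo6, Arhgap42 and Ipmk (all at r = 0.94), and Cd68 was most like Slc11a1 (0.79), a metal transporter of phagosomes, Tbck (0.76) and Gm6781 (0.72). When each library was centred on its kit and treatment, Clec4f was most like the protease gene Ctsl (0.93), Slc19a2 (0.92) and Frrs1 (0.91). What remains after this centring holds differences between mice and the noise of single libraries, which were not separated. Marco was then at rank 11 with r = 0.87, so libraries with more Clec4f than their group mean tended to have more Marco.

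Further genes known from Kupffer cells were called in both directions. Of 14 listed, 4 were lower and 1 was higher in TruSeq (21.8% and 12.3% of all genes), and 2 lower and 1 higher in V4 (7.41% and 3.60%). In Pico, where 13 were listed, 2 were lower (10.8%). The median log2 fold change was -0.46, -0.55 and -0.32. Slc40a1, which encodes the iron exporter ferroportin, was the only one called lower in all kits. Its TruSeq counts were 334, 371 and 329 after IL-1β and 1485, 1424 and 1697 after saline (log2 fold change -2.11, SE 0.11, limma-voom adjusted p = 2.44e-06). The C1q genes, which encode the chains of complement C1q, were split: C1qc fell in TruSeq (-0.76) and V4 (-1.11), while C1qa and C1qb were not called in any kit. The call of C1qc was kept in 5 of 6 cases without 1 library in TruSeq and in 3 of 6 in V4. Mertk (-1.12) and Fcna (-0.79) were called lower in TruSeq only, and both calls held without any single library. Id3 was higher in TruSeq and V4 (1.23 and 1.16), and Cd209f had at most 3 counts in a V4 or TruSeq library. Among genes of the CSF1 receptor axis and macrophage transcription factors, the ligand gene Csf1 (-0.85) and Maf (-0.71) were called lower in TruSeq only. Sfpi1, which encodes PU.1, was called in none.

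Genes shared by phagocytes were called in both directions. Of 22, TruSeq called 2 higher and 7 lower (12.3% and 21.8% of all genes), Pico 2 and 2 (6.78% and 10.8%), and V4 2 and 1 (3.60% and 7.41%). The median log2 fold change of the list was -0.09, -0.03 and -0.22. Cd14, the co-receptor for lipopolysaccharide, rose from 18, 12 and 24 counts after saline to 2317, 2162 and 1733 after IL-1β in TruSeq (log2 fold change 6.89, SE 0.30, limma-voom adjusted p = 9.08e-07). Itgam, an integrin of neutrophils and monocytes, rose from 13, 14 and 17 to 74, 93 and 69 (2.42, SE 0.26). Fcgr2b, the inhibitory Fc receptor, which in liver is also a gene of sinusoidal endothelium, fell from 462, 491 and 393 to 177, 172 and 140 (-1.42, SE 0.14). These 3 genes were called in the same direction in every kit. Which cells of the liver held the Cd14 RNA was not determined. With TMM factors the TruSeq calls of this list became 5 higher and 5 lower, without mouse UNT_9574 they were 4 and 4, without mouse ILB_9579 3 and 3, and without mouse ILB_9583 or UNT_9575 2 and 4. The V4 call of Itgam was kept in 2 of 6 cases without 1 library.

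Among genes of cells known to enter the inflamed liver, most neutrophil markers rose, while fewer monocyte genes were called. Of 11 neutrophil markers in the TruSeq table, 8 were called and all rose (12.3% of genes were called higher), as did 8 of 8 in Pico (6.78%) and 6 of 10 in V4 (3.60%). Without 1 library, 6 to 9 were called in TruSeq, 5 to 7 in Pico (5 without mouse ILB_9582, ILB_9583, UNT_9574 or UNT_9575) and 4 to 6 in V4. Their summed level went from between 3.75 and 6.80 CPM after saline to between 46.9 and 93.0 CPM after IL-1β in TruSeq, from 0.97 to 6.05 up to 42.3 to 52.7 in Pico, and from 3.48 to 6.41 up to 44.9 to 85.2 in V4. The calprotectin subunit gene S100a9 (241, 514 and 340 counts against 19, 13 and 15 in TruSeq), Retnlg (58, 81 and 61 against 3, 1 and 0) and Ngp (7, 15 and 9 against 0, 0 and 0) were higher in each kit, while Ly6g, Camp and Elane had at most 3 counts in any TruSeq library. The Pico call of Ngp was kept only without mouse ILB_9579. Of 12 monocyte genes, TruSeq called 5 higher and 1 lower, and Pico and V4 2 higher each, with summed levels in TruSeq of 11.2 to 16.9 CPM after saline and 21.0 to 29.2 after IL-1β. Vcan and F13a1 rose in TruSeq and Pico, and Plac8 in TruSeq and V4, whereas Ccr2, the chemokine receptor of inflammatory monocytes, was not called (18.3 ± 7.02 TruSeq counts after IL-1β against 22.7 ± 3.79, SD, n = 3). The Pico call of F13a1 was lost without mouse UNT_9575 or ILB_9582, and the V4 call of Plac8 was kept only without mouse UNT_9576. The defining monocyte gene Ly6c2 had a mean of 8.0 TruSeq counts after IL-1β. Of the genes listed for phagocyte activation, 4 of 11 were called higher in TruSeq and 2 of 10 in both other kits. They were led by Il1rn, the IL-1 receptor antagonist (2194, 1783 and 1080 TruSeq counts against 14, 23 and 7), and Clec4d, while Il1b and Tnf were called in no kit. The cells that held the Il1rn RNA were not determined in these libraries of whole liver. The Pico call of Clec4d was lost whichever library was left out. Lyz2 and Itgam are also genes of neutrophils, and the part of neutrophil RNA in the values of the 10 genes was not tested.

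Genes of the sinusoidal endothelial, stellate and hepatocyte lists were called lower more than higher, with some called higher. Over all genes, 21.8% were called lower and 12.3% higher in TruSeq, 10.8% and 6.78% in Pico, and 7.41% and 3.60% in V4. Of 7 sinusoidal endothelial markers, 5 were lower and 1 higher in TruSeq, 4 lower and 2 higher in Pico and 3 lower in V4, and their summed level in TruSeq went from between 190.7 and 215 CPM to between 99.3 and 126.5 CPM. Kdr, the VEGF receptor (87, 118 and 97 TruSeq counts against 598, 545 and 475), Clec4g and Eng were lower in every kit, and Lyve1 was higher in TruSeq and Pico. Of 6 stellate cell markers, 4 were lower in TruSeq, 3 in Pico and 2 in V4, among them Colec11 and Lrat in all kits, with a summed level in TruSeq of 284.2 to 322.1 CPM after saline and 152.6 to 197.8 after IL-1β. Of 8 hepatocyte markers, 4 were lower and 2 higher in TruSeq, 6 and 2 in Pico and 3 and 1 in V4, where Alb and Cps1 fell and Tat rose in all kits. Summed, they were 88340 to 106400 CPM after saline and 66000 to 72470 CPM after IL-1β in TruSeq. With TMM factors 3 hepatocyte markers were lower in Pico, 3 in TruSeq and 2 in V4, and stellate calls were 2 in Pico and 1 in V4, where Lrat was lost (limma-voom adjusted p = 0.0609). Without 1 library, the V4 call of Kdr was kept in 4 of 6 cases, that of Lrat in 2, and the Pico call of Colec11 in 3. The part of these changes in the levels of the 10 genes was not tested.

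The lists of other immune cells, bile duct cells and peritoneal cells had calls of either direction. The shares of all genes called lower and higher were 21.8% and 12.3% in TruSeq, 10.8% and 6.78% in Pico, and 7.41% and 3.60% in V4. Of 9 lymphocyte markers, 3 were lower in TruSeq (Cd4 and Cd79a among them), 1 was higher in Pico (Ncr1, with a mean of 3.0 counts after IL-1β and 0 after saline) and none was called in V4, and their sum was 4.20 to 5.69 CPM after saline and 1.21 to 2.19 after IL-1β in TruSeq. Of 5 dendritic cell markers, Zbtb46 was lower in TruSeq (44, 44 and 63 counts against 72, 79 and 91) and none was called in Pico or V4. The call of Zbtb46 was lost with TMM factors. Summed levels of this list in TruSeq were 9.33 to 11.6 CPM after saline and 8.18 to 8.53 after IL-1β. Of 4 cholangiocyte markers, Epcam was higher in TruSeq and Pico and Sox9 in TruSeq. Their sums were 5.06 to 6.40 CPM after saline and 8.30 to 12.9 after IL-1β. Of 5 markers of peritoneal macrophages and mesothelium, Gata6 was higher in TruSeq (107, 109 and 87 counts against 62, 83 and 62) and none was called in the other kits, with sums of 9.17 to 14.9 CPM after saline and 10.1 to 16.3 after IL-1β. Among fits without 1 library, the call of Ncr1 was kept only without mouse ILB_9579, that of Sox9 only without ILB_9583, that of Gata6 only without ILB_9583 or UNT_9575, and that of Zbtb46 only without ILB_9583 or UNT_9574. The lymphocyte calls in TruSeq numbered 1 to 3, with 1 without mouse ILB_9582.

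**Figure D4:**
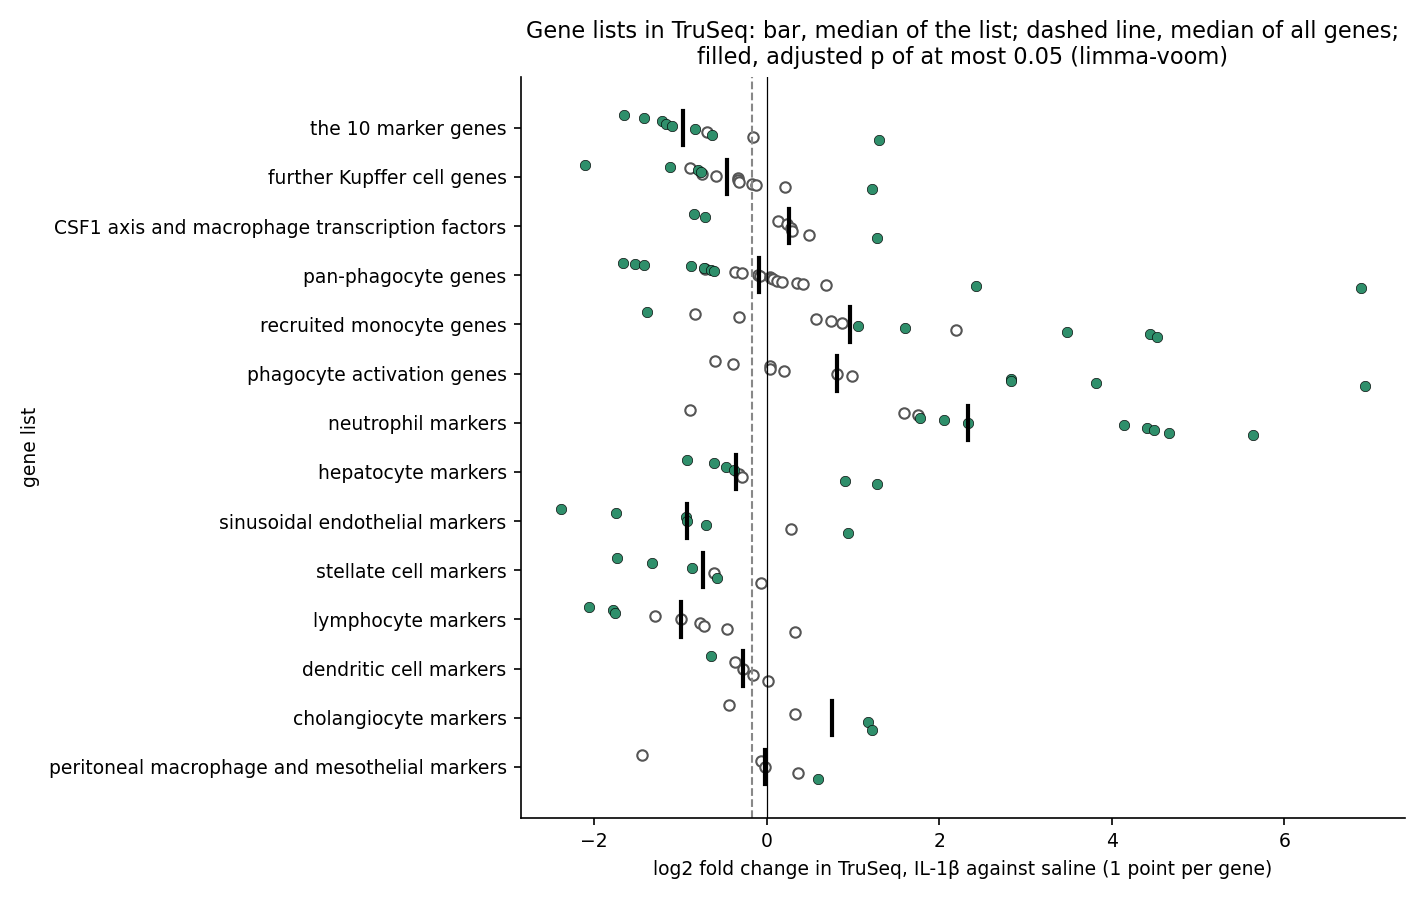
Log2 fold change in TruSeq (horizontal axis) of each gene of the 14 lists (vertical axis), with 1 point per gene, filled where the adjusted p was at most 0.05, a bar at the median of the list and a dashed line at the median of all genes (-0.17). The medians of the lymphocyte markers (-0.99), of the 10 marker genes (-0.97) and of the sinusoidal endothelial markers (-0.93) lie to the left, and that of the neutrophil markers (2.34) lies farthest to the right.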

How the data were processed

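The authors aligned the reads to mm9 with GSNAP, removed ribosomal reads, used the PORT pipeline to resample the libraries of a kit to 1 read depth, and counted those compatible with annotated splicing per gene. The deposited values are whole-number counts. They cover both strands in V4 and only sense reads in the stranded kits. The authors normalized each table on its own. The TruSeq values are a re-analysis of earlier reads per the labels, and the Pico preparation was repeated in the study, with the run behind the table not given in the sources used here. Columns were matched to samples by their titles.

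Each kit was fitted with limma-voom (limma 3.58.1, R 4.3.3) on library totals, over genes with at least 1 count, with Benjamini-Hochberg adjustment. Differences between kits were fitted on 12 libraries with a kit by treatment interaction. As alternatives, the fits were repeated with the quasi-likelihood test of edgeR 4.0.16, with DESeq2 1.42.0, with voom on TMM-scaled libraries, over genes reaching 10 counts in 3 libraries, over all genes, at other thresholds, without each library in turn, in 1 fit of 18 libraries with the mouse as a block, and on counts thinned to 4024632 per library (5 draws). Fits were tested on simulated data.

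The mouse number pairs libraries of different kits, since each mouse's RNA went into all 3. Deviations from the group means correlated within mice by 0.194 to 0.446 (Pico and TruSeq), 0.168 to 0.458 (V4 and TruSeq) and 0.0796 to 0.234 (Pico and V4). Exon lengths come from GENCODE on NCBIM37 and promoters from RefSeq. Named genes are the 10 members, Lyz1, up to 3 genes per other list with the smallest TruSeq p among those called in the most kits, and the 3 genes most like Clec4f, Csf1r and Cd68. Genes named beside these were chosen after their values were seen (Hmgxb3, C1qa, C1qb, C1qc, Mertk, Fcna, Id3, Cd209f, Csf1, Maf, Sfpi1, Ly6g, Camp, Elane, Ccr2, Ly6c2, Il1b, Tnf, Lyve1, Ncr1, Sox9, Ctsl and Frrs1). The members, lists and tests were chosen with earlier results of these data known. Some genes of these lists are not reported here. Summaries used Python 3.11.15. Replicates are separate mice.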

Additional observations from a re-analysis of the deposited data

How the results depend on the processing

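The number of the 10 genes called depended on the settings most in V4, where 2 were called. There were 4 at an adjusted p of at most 0.1 and 0 at 0.01, 1 with TMM factors (Vsig4), and 4 with edgeR, with DESeq2 and with the filter of at least 10 counts in 3 libraries (Emr1, Clec4f, Cd5l and Vsig4 each time). Leaving out 1 library gave 0 to 4. In Pico, 4 became 2 at an adjusted p of at most 0.01 (Vsig4 and Csf1r) and 2 to 3 without 1 library. In TruSeq, 8 became 6 to 8 without 1 library, 7 with TMM factors and 7 after thinning, which lost Cd163. In the fit of 18 libraries with the mouse as a replicate block, 2 genes were called in Pico (Vsig4 and Csf1r), 5 in V4 (Emr1, Clec4f, Cd5l, Vsig4 and Marco) and 8 in TruSeq. That fit called 14.2%, 29.2% and 26.6% of all genes. In the comparisons between kits, the block changed no call of the 10 genes. Differences in response between kits stayed at 0 called without any 1 mouse (0 to 0), and DESeq2 called 1 between Pico and TruSeq (Emr1). The log2 fold change of Cd68 turned its direction in V4 without mouse ILB_9582 (-0.12) or UNT_9575 (-0.034), with a range of -0.12 to 0.31 without 1 library, and in TruSeq without mouse UNT_9574 (0.088), with a range of -0.37 to 0.088, and after thinning (0.038). Of the other values under an alternative, 135 in Pico, 122 in V4 and 139 in TruSeq kept their direction and their side of the threshold, 14, 12 and 9 lost the call and 1, 14 and 0 gained it. The causes were not tested. Timd4 had 2 to 55 counts in V4, with an SE of 0.96 on the log2 scale, and 11 to 38 counts in Pico, with an SE of 0.44.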
